A study of Mus musculus with 10 samples.

Results

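The SLC25 family of mitochondrial solute carriers was examined in tumour-associated macrophages as the genes whose mouse symbol begins with Slc25a and whose counts summed to at least 100 over the 10 libraries. This gave 37 members, of 47 genes so named among 36528 gene identifiers. The macrophages were purified from tumours that grew in C57Bl/6 mice from MC-38, a mouse colon carcinoma line. The mice had received anti-MerTK, an antibody against a receptor through which macrophages engulf dying cells, or anti-gp120, an antibody against an HIV envelope protein, which forms the control group. Polyadenylated RNA was sequenced 24 h after treatment in 5 libraries per group. All 10 libraries share the strain and the tumour. The labels give no age, sex, dose, untreated group or gate for the purification, and do not say whether each library came from a separate mouse, so the p-values reflect variation among these libraries alone, part of which could be technical.

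SLC25 carriers are encoded in the nucleus and most sit in the inner mitochondrial membrane, where each moves a particular set of metabolites between the cytosol and the matrix. They exchange ADP for ATP, bring in phosphate, and carry amino acids, citrate and other carboxylates, nucleotides, cofactors and iron. In macrophages, export of citrate from mitochondria feeds the synthesis of lipids in the cytosol, and glutamate and aspartate carriers link the redox state of both compartments.

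The libraries held 33159858 to 46108687 counted reads, and the members together took 0.186% to 0.207% of them. Macrophage markers summed to 23839 to 28952 CPM (reads of a gene relative to the total of its library, scaled by TMM) in anti-gp120 libraries and 25877 to 28368 CPM after anti-MerTK, 1 of these 10 genes was higher (Fcgr1), and none was at 0. Of the monocyte markers, 1 of 10 tested was higher after anti-MerTK (Plac8, 13.8 ± 10.8 and 71.4 ± 34.4 CPM). The list summed to 381 to 597 CPM in the controls and 509 to 812 CPM after anti-MerTK, ranges that overlap. Of the 10 tested, 8 had a positive and 2 a negative estimate. Their median log2 fold change was 0.64, beside -0.01 over all genes tested. In edgeR 4 of them (40%) were higher at an unadjusted p under 0.05 and 0 lower, where 10.1% of all tested genes were higher. Of the epithelial markers, 5 of 6 (Epcam, Krt8, Krt18, Krt19 and Cldn7) averaged under 0.5 CPM over the 10 libraries. Cdh1, the 1 that could be tested, was lower, at 46.5 CPM on average in the controls and 28.2 CPM after anti-MerTK. Its level was thus far above that of the other 5, and which cells gave its reads was not tested. Fcgr1, Plac8 and Cdh1 are named because they passed, after their values were seen. Of the tested markers of neutrophils (3), dendritic cells (7), T and NK cells (3), B cells (2) and fibroblasts and endothelium (8), 0 passed, and Ngp of neutrophils was at 0. Erythroid markers summed to at most 0.165 CPM in any library. Of 14 markers of cycling cells 0 passed the test, and their sums overlapped, at 729 to 1016 and 809 to 1051 CPM. In bulk RNA such as this, fewer cells of a type and less RNA per cell cannot be told apart.

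Slc25a22, a carrier of glutamate into the matrix, was the 1 member that was higher after anti-MerTK, and 0 members were lower. The other 36 members did not pass the test, and 35 of all 37 had a log2 fold change smaller than 0.5 in size. Genes were tested with edgeR's quasi-likelihood test on the counts and called at a Benjamini-Hochberg adjusted p under 0.05 over all 13588 genes tested, and all 37 members were among these. The share of all tested genes called was 1.85% in the higher direction and 1.38% in the lower direction, beside 2.70% and 0% of the members. The share over all genes was not stable. It was 0.725%, 1.13% and 0.40% in the higher direction without anti-gp120 2, 3 or 4, and 0.637%, 0.887%, 0.768% and 1.04% without anti-MerTK 1, 2, 3 or 4. In the lower direction it was 0.234% and 0.109% without anti-gp120 2 or 4, 0.19%, 0.233%, 0.139% and 0.737% without anti-MerTK 1, 2, 3 or 4, and 2.07% without anti-MerTK 5. DESeq2 called 4.42% higher and 4.17% lower, and limma-voom 3.87% and 3.75%. The family was taken up with the rise of Slc25a22 known, so its values below are a description with no test. The groups did not overlap for 1 member, again Slc25a22, where 3.26% of all tested genes were higher and 2.71% lower without overlap. The median log2 fold change was -0.05 over the members and -0.01 over all genes tested. An unadjusted p under 0.05 was reached by 13 members, or 35.1%, 5 of them higher and 8 lower, where 20.9% of all tested genes reached it, 10.1% higher and 10.8% lower.

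**Figure D1:**
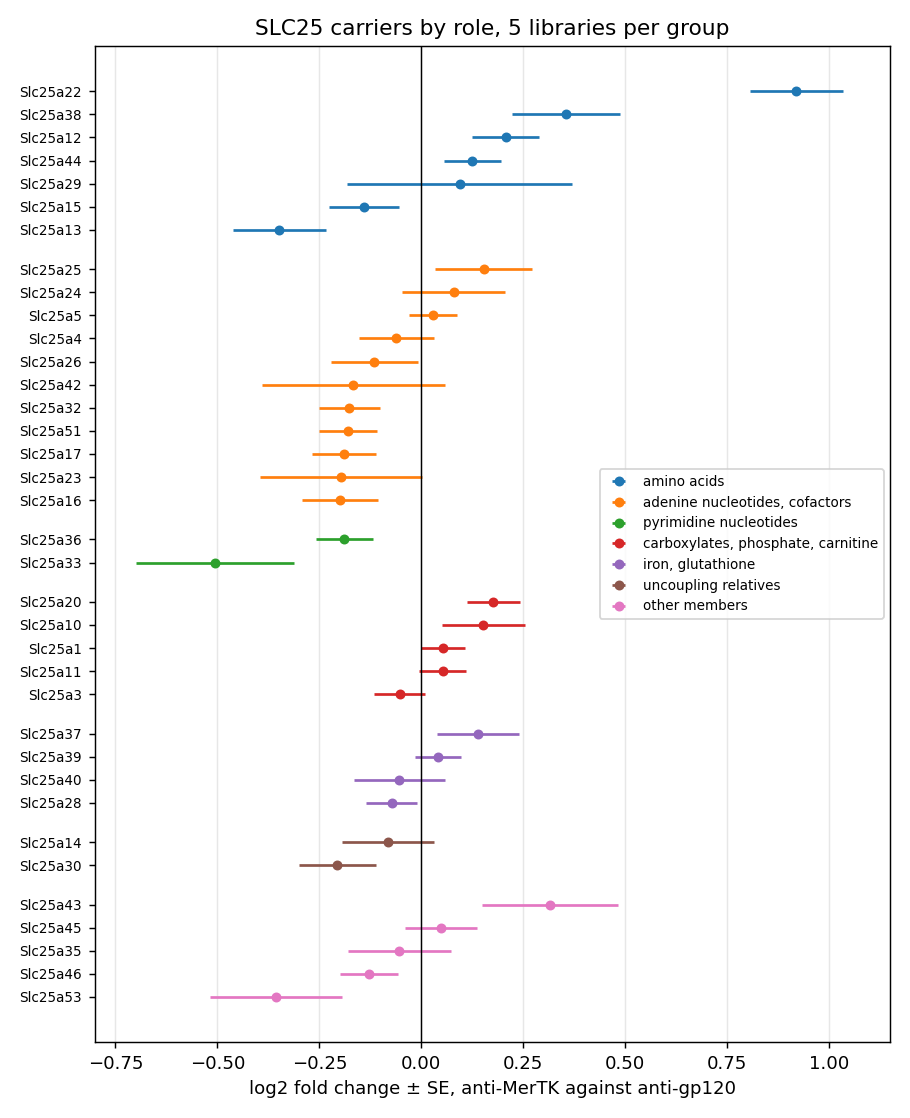
Log2 fold change of 36 of the 37 carriers, anti-MerTK against anti-gp120, with its approximate standard error (bars, 5 libraries per group), coloured and grouped by the kind of solute carried. Slc25a22 stands at 0.92, the next highest estimate is Slc25a38 at 0.35, and the lowest is Slc25a33 at -0.51.

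By the authors' RPKM, the order of levels was led by carriers of oxidative phosphorylation. Levels are compared between genes as the authors' RPKM, which divides reads by gene length and library size. Slc25a3, which brings phosphate into the matrix, had 236.8 ± 7.72 RPKM after anti-gp120 (SD, n = 5), followed by the ADP/ATP exchangers Slc25a5 at 128.6 ± 6.61 and Slc25a4 at 108.1 ± 6.03 RPKM. These 3 genes held 50.3% of the summed RPKM of the 37 members, and 32.9% once the 5 carriers under other symbols described below (such as Ucp2) are added. Slc25a11, the oxoglutarate carrier of the malate-aspartate shuttle, followed at 87.0 ± 4.40 RPKM and Slc25a39, a glutathione carrier, at 55.6 ± 1.63 RPKM. The ranges of these 5 genes over the control libraries did not overlap with that of the next gene in the order. Of all 36 neighbouring pairs 27 overlapped, and whether such a pair keeps its order within each library was not examined. At the low end stood Slc25a29 (0.315 ± 0.0973 RPKM), Slc25a42 (0.289 ± 0.0534 RPKM) and Slc25a53 (0.255 ± 0.0364 RPKM), and the highest mean was 928-fold above the lowest. The order at the top depends on the gene model, and not for the first place alone. With GENCODE M21 exon lengths in place of the authors' RPKM, Slc25a3 ranked 3rd in each control library. That comparison was added after seeing the data. The order of the genes that follow Slc25a3 and the share of 50.3% are given by the authors' RPKM only and can differ under other lengths.

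**Figure D2:**
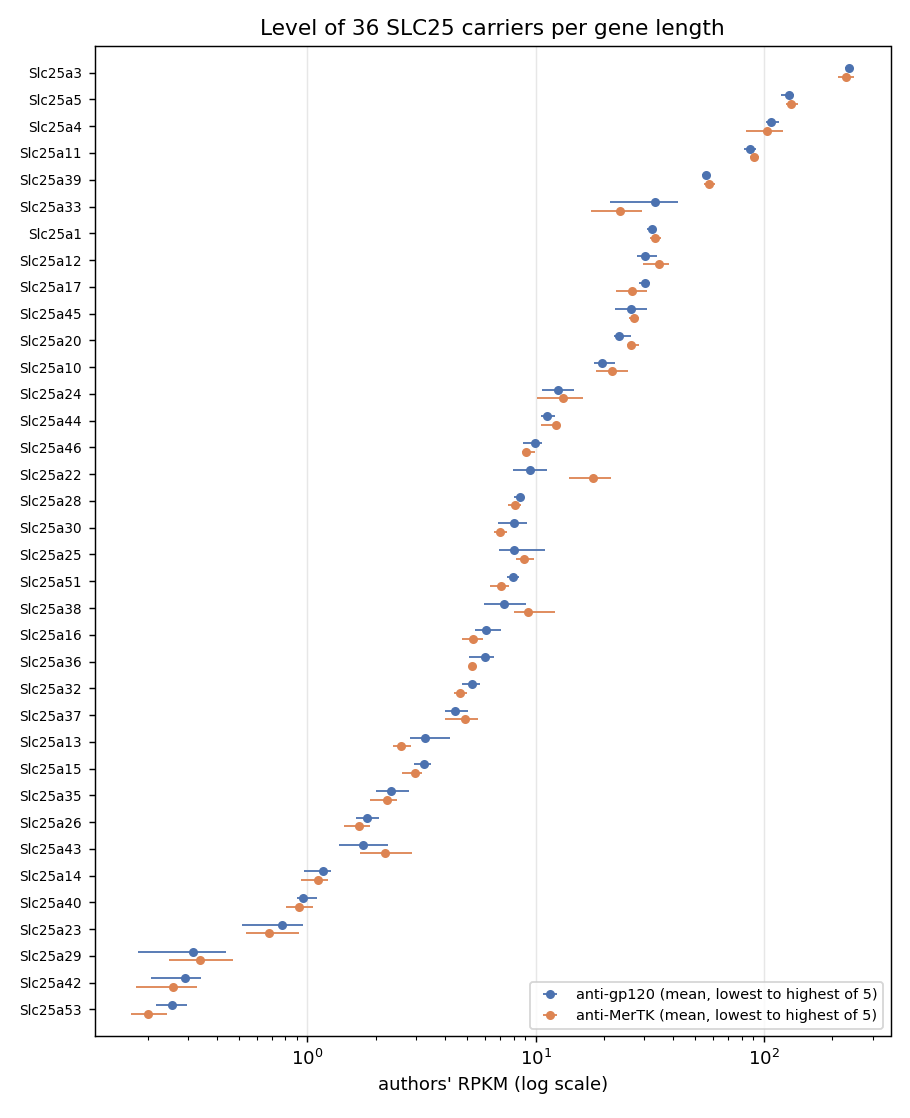
Mean level of 36 of the 37 carriers in the authors' RPKM on a log axis, with bars from the lowest to the highest of 5 libraries, for anti-gp120 (blue) and anti-MerTK (orange). Slc25a3 leads at 236.8 RPKM in the controls, and Slc25a22 is the carrier whose bars lie far apart, at 9.41 and 17.8 RPKM.

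Genes outside the rule were nearly silent. The 10 genes with fewer than 100 reads in total were Slc25a31 with 97, Slc25a41 with 56, Slc25a18 with 36, Slc25a27 with 35, Slc25a47 with 28, Slc25a2 and Slc25a34 with 8 each, Slc25a48 with 5, Slc25a54 with 3 and Slc25a21 with 0. The members nearest the minimum were Slc25a29 with 244 reads and Slc25a42 with 338. Slc25a18 encodes the other mitochondrial glutamate carrier, so nearly all reads of this pair came from Slc25a22, with 17732.

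Slc25a22 lies on chromosome 7, 141429749 to 141437874 (GRCm38.p6, Entrez 68267). Its level was 32.3, 30.1, 26.3, 30.8 and 37.5 CPM in anti-gp120 libraries 1 to 5, and 60.7, 71.6, 58.8, 59.2 and 46.7 CPM in anti-MerTK libraries 1 to 5. Every anti-MerTK library lay above every anti-gp120 library, with anti-MerTK 2 highest and anti-gp120 3 lowest. The group means were 31.4 ± 4.08 and 59.4 ± 8.86 CPM (SD, n = 5), a 1.89-fold difference and a log2 fold change of 0.92 (SE 0.11). Per gene length the gene moved from 9.41 ± 1.22 to 17.8 ± 2.63 RPKM and from rank 17 to rank 13 among the members. The log2 fold change ran from 0.85 to 0.99 when each library was left out in turn, and was 0.92 in 8 libraries without anti-MerTK 2 and 5. The monocyte marker sums given above overlapped between the groups, with 1 marker higher and 8 of 10 tested with a positive estimate. The part of these markers in the difference was not tested.

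None of the genes next to Slc25a22 passed the test. Within 50 kb, 9 other genes were tested. Their log2 fold changes ran from -0.33 (Cracr2b, SE 0.15, adjusted p by edgeR = 0.227) to 0.24 (Pidd1, SE 0.16, adjusted p by edgeR = 0.427). Pidd1, whose product takes part in the response to DNA damage, lies 239 bases from the gene and had 3.73 ± 0.258 and 4.41 ± 1.11 CPM. No 50-base stretch of the longest GENCODE M21 transcript of Slc25a22 occurred in an annotated transcript of another gene, and no annotated exon of another gene overlapped its exons.

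Because Slc25a22 carries the difference, a stretch upstream of 1 of its starts is shown. RefSeq's table for GRCm38.p6 gives 3 starts for the gene, and it holds promoter windows for 29 of the 37 members. The 300-base window around each start was searched on both strands for GAAA, any 2 bases, GAAA, a core of the interferon-stimulated response element, and for 3 other motifs (TTCNNNGAA, CACGTG and TGACTCA). The first motif occurs in 3.44% of 32851 windows in the table and in 2 of 38 windows of the members, 1 of Slc25a22 and 1 of Slc25a15. The motif and the gene were chosen with the results known, and the libraries do not show which start was used. The stretch at chr7:141435398-141435525 on the minus strand, which runs from 150 to 23 bases before the start at 141435375, reads 5′ to 3′ as follows, with the match in capitals.
Slc25a22 upstream: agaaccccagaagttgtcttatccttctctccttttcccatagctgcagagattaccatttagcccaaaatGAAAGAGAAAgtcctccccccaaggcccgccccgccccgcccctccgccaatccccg
The match lies 79 to 70 bases before that start. The span of the gene reaches 141437874, so that start and the stretch lie inside it and not at its outer end. The TTCNNNGAA motif (8.30% of all windows) was found in 1 window of the members, of Slc25a36, and TGACTCA (5.20% of all windows) in 1, of Slc25a13. CACGTG (7.15% of all windows) was found in 7 of the 38, which belong to Slc25a1, Slc25a13, Slc25a14, Slc25a15, Slc25a33 and Slc25a36. A match describes the letters and says nothing about binding.

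Among the 7 amino acid carriers, 1 was higher (Slc25a22) and 0 were lower, and the estimates ran from -0.35 to 0.92. Slc25a13 and Slc25a12 encode the 2 aspartate/glutamate carriers of the malate-aspartate shuttle. Slc25a13 gave 17.4, 12.98, 13.5, 12.1 and 11.6 CPM in the anti-gp120 libraries and 11.4, 9.75, 10.3, 9.97 and 11.7 CPM in the anti-MerTK libraries. The groups overlapped by the last library of each, and anti-gp120 1 stood highest. Its log2 fold change was -0.35 (SE 0.11) and did not pass in edgeR (adjusted p = 0.109). Slc25a12 had 91.9 ± 7.74 and 106.1 ± 10.4 CPM (SD, n = 5), with 4 of 5 anti-MerTK libraries above the control mean (log2 fold change 0.21 with SE 0.08; adjusted p by edgeR = 0.174). Per gene length, the ratio of Slc25a12 to Slc25a13 was 9.40 ± 1.70 in the controls (7.45 to 12.1) and 13.7 ± 2.15 after anti-MerTK (10.4 to 16.3), given as a description of 2 members chosen with their values known.

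Slc25a38, a glycine carrier needed for heme synthesis, gave 15.05, 13.5, 17.4, 14.7 and 20.2 CPM after anti-gp120 and 19.0, 27.1, 20.02, 19.4 and 17.9 CPM after anti-MerTK. Anti-MerTK 2 was well above the others and anti-gp120 5 lay inside the anti-MerTK range. The log2 fold change was 0.35 (SE 0.13; adjusted p by edgeR = 0.153) and did not pass. Slc25a44, which carries branched-chain amino acids, had 40.2 ± 2.08 and 43.9 ± 3.49 CPM (log2 fold change 0.12 with SE 0.07; adjusted p by edgeR = 0.328). The ornithine carrier Slc25a15 had 11.2 ± 0.860 and 10.2 ± 0.764 CPM, and Slc25a29, a carrier of basic amino acids, had under 1 CPM in every library, between 0.352 and 0.926.

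**Figure D3:**
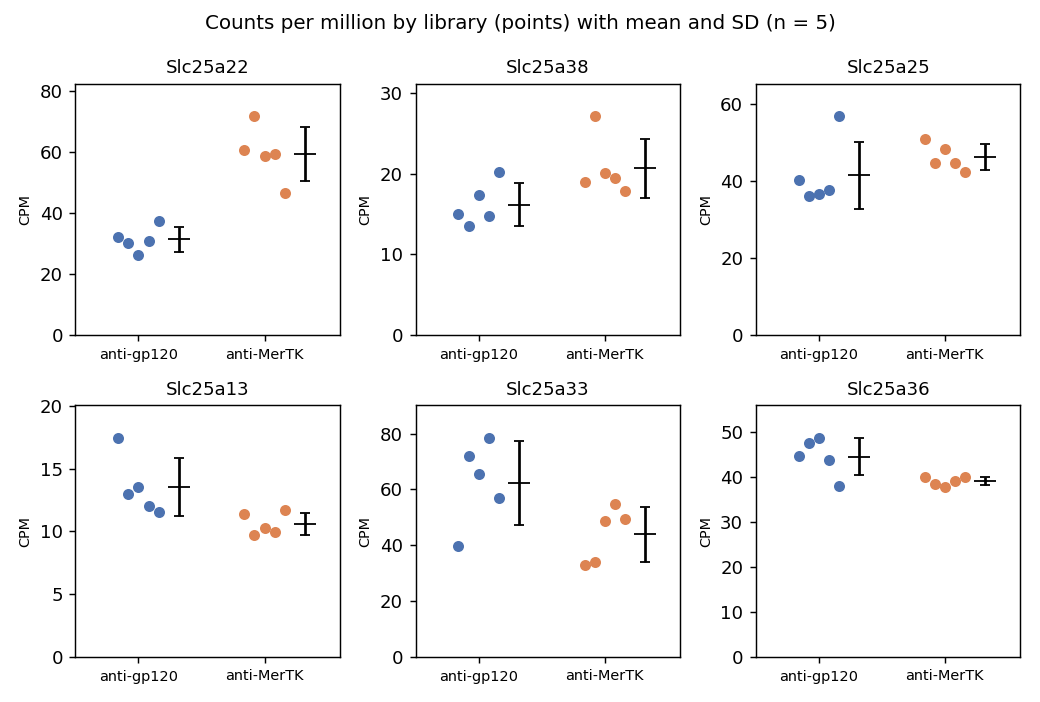
CPM of 6 carriers in each library (points, in order of replicate number) with the group mean and SD (black, n = 5), on axes that start at 0. The groups are apart for Slc25a22 (26.3 to 37.5 against 46.7 to 71.6 CPM) and overlap for Slc25a38, Slc25a25, Slc25a13, Slc25a33 and Slc25a36.

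Of the 2 pyrimidine nucleotide carriers, 0 passed. Both had a negative estimate and an unadjusted p under 0.05 in edgeR, where 10.8% of all tested genes were lower at that threshold. Slc25a33 gave 39.6, 71.8, 65.5, 78.3 and 56.8 CPM in the anti-gp120 libraries and 32.8, 34.1, 48.6, 54.8 and 49.3 CPM in the anti-MerTK libraries. It was the member with the lowest estimate and the one whose controls were furthest spread among those above 10 CPM, with a coefficient of variation of 24.1%. Anti-gp120 1 lay among the anti-MerTK libraries, and the log2 fold change of -0.51 (SE 0.19) did not pass (edgeR adjusted p = 0.166). GENCODE M21 places an antisense gene, Gm13068, over 14.9% of its exonic bases, and whether reads were counted by strand is not given in the sources used here. Slc25a36 gave 44.7, 47.4, 48.6, 43.75 and 38.1 CPM in the controls and 39.9, 38.4, 37.8, 39.1 and 39.9 CPM after anti-MerTK. Its anti-MerTK libraries lay close together, with a coefficient of variation of 2.43%, and anti-gp120 5 was among them. The log2 fold change was -0.19 (SE 0.07; adjusted p by edgeR = 0.150). Without anti-gp120 5 it was -0.24 and passed (edgeR adjusted p = 0.0470). Of the 50-base stretches in the longest Slc25a36 transcript, 11.8% also occur in Gm13217, so unique counting can understate the level of Slc25a36.

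Of the 12 carriers of adenine nucleotides and cofactors, 0 passed and 8 had a negative estimate. Slc25a5 had 158.7 ± 7.12 and 161.9 ± 7.46 CPM (SD, n = 5), a log2 fold change of 0.03 (SE 0.06). Slc25a4 had 119.4 ± 6.09 and 114.4 ± 16.03 CPM, a log2 fold change of -0.06 (SE 0.09), with anti-MerTK 2 lowest at 92.6 CPM and anti-MerTK 5 highest at 133.1 CPM. Without anti-MerTK 2 the estimate for Slc25a4 was 0.01. Of the 50-base stretches in the Slc25a5 transcript, 46.6% also occur in transcripts of 9 other annotated genes, so unique counting can understate its level and its place beside Slc25a4 is uncertain. The ratio of Slc25a4 to Slc25a5 per gene length was 0.840 ± 0.0204 in the controls and 0.787 ± 0.0807 after anti-MerTK.

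Slc25a25 and Slc25a24 exchange ATP-Mg for phosphate under control of calcium. Slc25a25 gave 40.5, 36.2, 36.6, 37.7 and 56.9 CPM in the anti-gp120 libraries and 50.98, 44.7, 48.3, 44.8 and 42.4 CPM in the anti-MerTK libraries. Anti-gp120 5 was above every other library, while the other 4 controls lay below all 5 anti-MerTK libraries. The log2 fold change was 0.15 (SE 0.12; adjusted p by edgeR = 0.485). It was 0.29 and passed without anti-gp120 5 (edgeR adjusted p = 0.0469), a library singled out after its value was seen. Slc25a24 overlapped widely, with 42.2 ± 5.03 and 44.6 ± 8.26 CPM.

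Cofactor carriers with negative estimates included Slc25a51, which carries NAD, at 38.5 ± 2.26 and 34.0 ± 2.62 CPM, Slc25a17 of peroxisomes at 49.99 ± 1.96 and 43.9 ± 5.04 CPM, and Slc25a32, a carrier of folate, at 15.5 ± 1.14 and 13.7 ± 0.675 CPM. Slc25a16, linked to coenzyme A, had 19.1 ± 2.12 and 16.6 ± 1.59 CPM. In edgeR their adjusted p lay between 0.171 and 0.247. The S-adenosylmethionine carrier Slc25a26 had 6.09 ± 0.527 and 5.62 ± 0.606 CPM. Slc25a23 and Slc25a42 were below 4 CPM in every library, the latter between 0.557 and 1.08 CPM.

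None of the 5 carriers of carboxylates, phosphate and carnitine passed. Their estimates ran from -0.05 to 0.18. Slc25a3 had 406.9 ± 11.6 and 392.2 ± 22.8 CPM (log2 fold change -0.05, SE 0.06) and Slc25a11 had 173.6 ± 7.75 and 180.1 ± 5.71 CPM (log2 fold change 0.05, SE 0.06). Slc25a1, which exports citrate, ran from 51.3 to 55.96 CPM over the controls and from 53.04 to 59.3 CPM after anti-MerTK. The dicarboxylate carrier Slc25a10 had 77.6 ± 6.31 and 86.2 ± 13.3 CPM, with anti-MerTK 1 and 2 at 98.9 and 101.2 CPM and the other 3 inside the control range. Slc25a20, which carries acylcarnitines for the oxidation of fatty acids, gave 46.4, 39.6, 39.6, 39.6 and 40.8 CPM in the controls and 47.01, 45.98, 44.8, 44.8 and 50.1 CPM after anti-MerTK. Only anti-gp120 1 reached the anti-MerTK range, and the log2 fold change of 0.18 (SE 0.06) did not pass (edgeR adjusted p = 0.147).

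**Figure D4:**
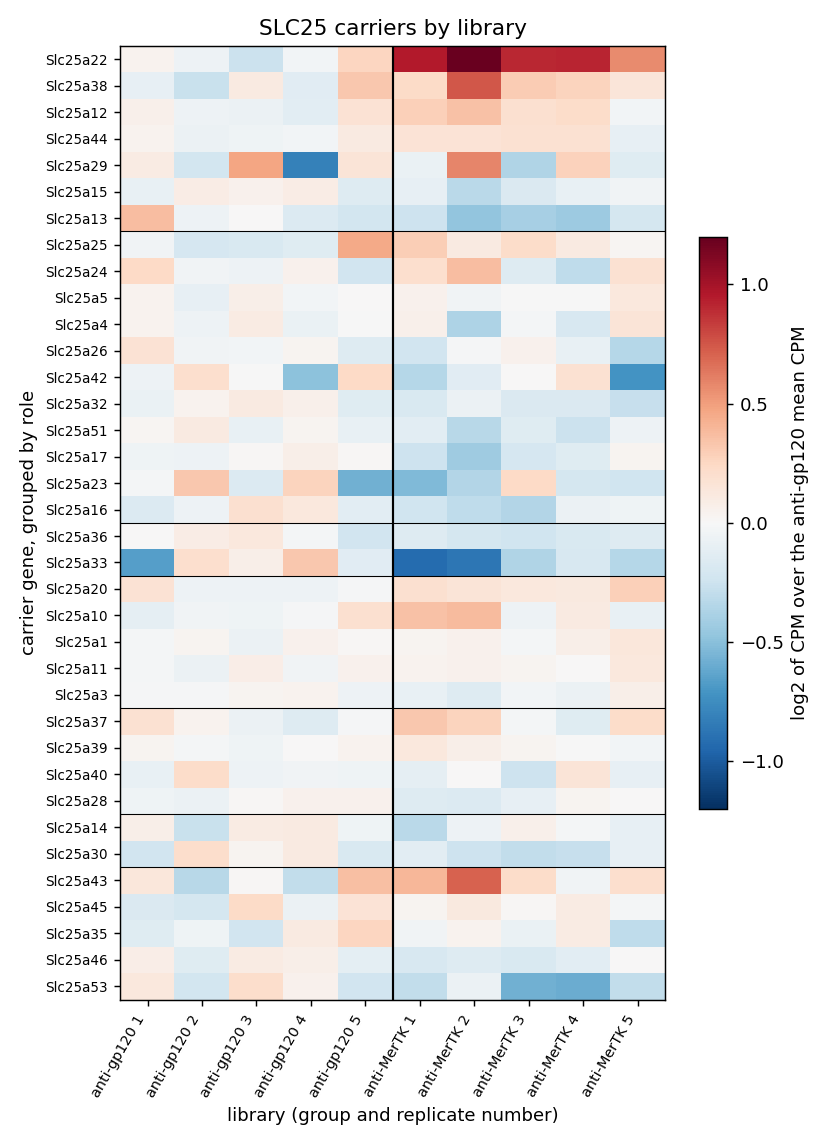
Log2 of CPM of 36 of the 37 carriers over the mean of each in the anti-gp120 libraries, by library, with carriers grouped by role (lines) in the order of the plot of fold changes. Values run from -0.93 to 1.19, and Slc25a22 is the row in which all 5 anti-MerTK libraries stand well above 0.

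Carriers of iron and glutathione showed no member past the threshold among 4. The iron importers of mitochondria, mitoferrin 2 (Slc25a28) and mitoferrin 1 (Slc25a37), had 34.1 ± 1.35 and 32.4 ± 2.05 CPM, and 21.1 ± 1.86 and 23.3 ± 3.20 CPM. Mitoferrin 1 is best known from red cell precursors, whose markers were nearly absent here. Slc25a28 had a log2 fold change of -0.07 (SE 0.06). Slc25a39 had 152.0 ± 4.22 and 156.4 ± 7.08 CPM (log2 fold change 0.04, SE 0.06), and per gene length it stood 58.7 ± 5.68 times above its relative Slc25a40 in the controls and 62.8 ± 7.43 times above it after anti-MerTK.

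The 2 relatives of uncoupling proteins did not pass. Slc25a30 had 17.6 ± 2.29 and 15.3 ± 0.974 CPM (log2 fold change -0.21 with SE 0.09; adjusted p by edgeR = 0.235) and Slc25a14 had 5.15 ± 0.540 and 4.86 ± 0.466 CPM (log2 fold change -0.08, SE 0.11). The remaining 5 members did not pass either. Slc25a45 had 66.7 ± 9.22 and 68.9 ± 2.92 CPM (log2 fold change 0.05, SE 0.09; -0.0028 without anti-gp120 2). Slc25a46, a protein of the outer mitochondrial membrane, had 45.7 ± 3.71 and 41.8 ± 2.35 CPM (log2 fold change -0.13 with SE 0.07; adjusted p by edgeR = 0.318). Slc25a35, Slc25a43 and Slc25a53 lay below 8 CPM in every library. Exonic sequence of Rangrf on the opposite strand covers 31.3% of the exonic bases of Slc25a35, so the count of Slc25a35 is uncertain. Rangrf itself averaged 0.117 CPM in the controls and 0.187 CPM after anti-MerTK, and Slc25a35 4.25 and 4.09 CPM.

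Other genes of mitochondrial transport were followed in 4 lists with 62 genes, of which 59 were tested, 2 were higher and 0 lower, beside 1.85% and 1.38% of all tested genes. Of 26 other transporters of the mitochondrial membranes 1 was higher. This was Tspo, a cholesterol-binding protein of the outer membrane, which rose from 313.6 ± 47.02 to 447.9 ± 46.06 CPM (SD, n = 5, log2 fold change 0.51 with SE 0.11; adjusted p by edgeR = 0.0290). The pyruvate carrier subunits Mpc1 and Mpc2, the 3 porins and the calcium uniporter Mcu did not pass. The Tspo call was lost without anti-gp120 2 or 4 (edgeR adjusted p = 0.0608 and 0.0875) or anti-MerTK 1, 2 or 3 (0.0715, 0.0675 and 0.0575), and in 8 libraries (0.109).

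Carriers reach the inner membrane through the TOM pore, small TIM chaperones and the TIM22 complex. Of 11 tested genes of this route, 8 had a positive and 3 a negative estimate, with a median log2 fold change of 0.14. In edgeR an unadjusted p under 0.05 was reached by 5 (45.5%), 4 higher and 1 lower. Of all tested genes 20.9% reached it, 10.1% higher and 10.8% lower. The groups did not overlap for 3, all higher after anti-MerTK, where 3.26% of all tested genes were higher without overlap. After adjustment 1 of the 11 was higher. Tomm40, the pore itself, rose from 43.5 ± 4.08 to 55.4 ± 5.18 CPM (SD, n = 5, log2 fold change 0.35 with SE 0.08; adjusted p by edgeR = 0.0445). Its call held without anti-gp120 1 or 5 or anti-MerTK 5, and was lost without anti-gp120 2, 3 or 4 (edgeR adjusted p = 0.107, 0.0752 and 0.123), without anti-MerTK 1, 2, 3 or 4 (0.105, 0.0949, 0.118 and 0.0649) and in 8 libraries (0.0740).

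Of 19 enzymes of the malate-aspartate shuttle and of glutamate metabolism 0 passed, and the median log2 fold change was -0.10. Mdh2, mitochondrial malate dehydrogenase, had 201.4 ± 15.5 and 233.03 ± 11.2 CPM (log2 fold change 0.21 with SE 0.07; adjusted p by edgeR = 0.111). Members of the carrier family that go by other symbols did not pass: Ucp2 had 1624 ± 217.7 and 1821 ± 91.3 CPM (log2 fold change 0.17, SE 0.10), Mtch1 155.7 ± 7.73 and 158.9 ± 8.97 CPM (log2 fold change 0.03, SE 0.06), and Ucp1 and Ucp3 were too low to test. Per gene length Ucp2, at 382.7 ± 51.5 RPKM in the controls, stood above Slc25a3.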

How the data were processed

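Each library's deposited counts are numbers of reads aligning uniquely to a gene model, per the file headers, and the deposited RPKM values carry a per-library size factor that the authors applied, also per the file headers. Reads were aligned with GSNAP to GRCm38, per the submitters' processing notes. For the counter, annotation release and use of strand, the sources used here give nothing. Identifiers are Entrez numbers, and 31049 of 36528 received symbols from a RefSeq gene table (GRCm38.p6). Libraries were numbered within a group by accession, which pairs none. The members, lists and tests were chosen with earlier results of these data known.

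Genes kept by filterByExpr (13588) were tested with edgeR 4.0.16 (limma 3.58.1, R 4.3.3): TMM, robust quasi-likelihood, treatment as the only term, two-sided, Benjamini-Hochberg at 0.05. The SE is the log2 fold change divided by the square root of F. CPM uses TMM library sizes. The test code was also run on counts simulated without outlying libraries, and nothing here rests on the outcome. Members were given with a fold change if they passed, had 1 of the 3 smallest p-values in a direction, or were among the 2 of highest level in their role group. From each pathway list the genes that passed were named, or the 2 of smallest p. Slc25a25 and other members were named after their values were seen. Alternatives used RLE and upper quartile scaling, the authors' size factors, no filter, a 5 CPM filter, DESeq2 1.42.0, limma-voom, 1 surrogate variable (sva 3.50.0), an adjusted p under 0.01, a minimum of 1000 reads, left-out libraries and, added after seeing the data, GENCODE M21 exon lengths for levels and the same settings for the pathway lists. The limma-voom fit weighted libraries by estimated quality. Of the planned features, those of protein sequences were not analysed here. Single results for 3 genes, 1 of them a member, are not reported here; counts and medians include them. Depth limits low genes: counting error is large under 1 CPM.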

Additional observations from a re-analysis of the deposited data

Results flagged for a closer look

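In 5 of the 74 combinations of a member and a group, 1 library lay so far from the other 4 that its gap to the nearest exceeded 0.71 of the group's range. Chance flags about 1 in 20 such groups. Slc25a20, the acylcarnitine carrier, was at 46.4 CPM in anti-gp120 1, above the other controls at 39.6 to 40.8 CPM. Slc25a25, an ATP-Mg/phosphate carrier, was at 56.9 CPM in anti-gp120 5, above the other controls at 36.2 to 40.5 CPM. Slc25a40, a glutathione carrier, was at 5.88 CPM in anti-gp120 2, above 4.75 to 4.90 CPM in the others. Slc25a38, the glycine carrier, was at 27.1 CPM in anti-MerTK 2, above 17.9 to 20.02 CPM in the others. Slc25a44, the branched-chain amino acid carrier, was at 37.7 CPM in anti-MerTK 5, below 45.1 to 45.8 CPM in the others. The 5 values fall in 5 different libraries.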

How the results depend on the processing

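The number of members called was 1 higher (Slc25a22, whose rise was known when the family was chosen, so this is a description and no support) and 0 lower under RLE, upper quartile and the authors' size factors, without a filter, with the 5 CPM filter, with DESeq2, limma-voom and 1 surrogate variable, at an adjusted p under 0.01, with a minimum of 1000 reads, and in 8 libraries. With a library left out, 1 to 2 members were called higher and 0 to 1 lower; the additions came without anti-gp120 5 (Slc25a25 and Slc25a36). Besides Slc25a22, 12 members had an unadjusted p under 0.05. The median log2 fold change of the members stayed between -0.06 and -0.04 with a library left out, and was 0.038 with the 5 CPM filter, which tested 30 of the 37. With a library left out, estimates crossed 0 for Slc25a4 (-0.12 to 0.0078, the latter without anti-MerTK 2), Slc25a45 (-0.0028 without anti-gp120 2, to 0.11) and Mtch1 (-0.0017 without anti-MerTK 1, to 0.049). With GENCODE exon lengths the mean rank in the controls was 20.6 for Slc25a22 (17 by the authors' RPKM) and 3 for Slc25a3 (1 by the authors' RPKM). In the 4 pathway lists together, 2 genes were higher and 0 lower. DESeq2 called 5 higher and 3 lower, and limma-voom 3 higher and 3 lower. With 1 surrogate variable 2 were higher and 1 lower, and 0 were higher in 8 libraries. With a library left out the higher genes numbered 0 to 2 and the lower genes 0 to 2. The cause of these moves was not tested. No paired analysis was possible because the labels give no replicate numbers.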
